A study of Mus musculus with 6 samples.

Results

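The genes of 10 proteins that fold, tether and partition the genome in the nucleus were followed at the RNA level through the development of B-cell lymphoma in Eμ-Myc mice, which carry a Myc transgene under the immunoglobulin heavy-chain enhancer that is active in the B lineage. They were the insulator protein gene Ctcf, the cohesin genes Rad21, Smc3 and Stag2, the cohesin loader gene Nipbl, the lamin genes Lmnb1, Lmnb2 and Lmna, the lamin B receptor gene Lbr and the matrix-attachment gene Satb1. They were chosen by symbol and make up 10 of the 37991 genes counted in each library. Poly(A) RNA was sequenced from bone-marrow B-lineage cells at 3 stages with 2 libraries each, on the C57BL/6 background. Wild-type cells came from littermates without the transgene aged 4 to 6 weeks, premalignant cells from heterozygous E{mu}Myc/+ transgenic mice of the same age, and malignant cells from E{mu}Myc/+ mice aged 10 to 20 weeks. The labels give a sort for B220 high, IgM low and IgD low cells, and the study's methods describe the malignant cells as B220-positive, IgM- and IgD-negative transformed pre-B cells from mice with spontaneous lymphoma. The study describes its sorted cells as coming from separate animals per replicate, while its sequencing methods state only that each stage had 2 biological replicates, so the p-values measure the spread between these libraries. Age and stage cannot be told apart in the malignant samples. By the study's methods, wild-type and premalignant cells came from females only, and malignant cells from females and males. The part of sex in the malignant values was not tested.

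Cohesin is a ring built from Smc1, Smc3 and Rad21 with a Stag subunit. Nipbl with Mau2 loads the ring onto DNA and drives its movement, Wapl releases it, and Ctcf bound to its sites halts it, which sets loop anchors and domain borders. Under the inner nuclear membrane the lamins form a meshwork that holds inactive chromatin at the periphery. B-type lamins are made in nearly all cells, A-type lamins from Lmna are mostly a feature of differentiated cells, and Lbr, a B-type lamin partner, is the other known tether. Satb1 binds AT-rich DNA, organises chromatin loops in lymphocyte precursors and is best known from the thymus.

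Library totals were 30031100 to 53453055 counts over genes, so that 3 counts in a library, taken here as the detection limit, amounted to 0.0526 to 0.107 counts per 1000000 counts of the library (CPM). All CPM below were scaled by the trimmed mean of M-values (TMM). A gene was called higher or lower at a false discovery rate of at most 0.1 and a log2 fold change of at least 0.5 in size, by edgeR's quasi-likelihood test over 16683 genes with Benjamini-Hochberg adjustment. The transgene's own gene, Myc, had 33.7 and 41.4 CPM in wild type, 1164 and 1155 in premalignant and 1731 and 1577 in malignant libraries, which follows the labels. The sex-linked genes Xist and Ddx3y, looked at after their values were seen, set malignant replicate 1 apart, with 1.71 CPM of Xist against 1907 to 2648 in the other 5 libraries and 126 CPM of Ddx3y against at most 0.113. Wild-type replicate 2 also stood apart, with 2782 CPM summed over 8 immediate-early genes against 63.3 to 151 in the rest. Markers of other blood cells were highest in the wild-type libraries. The summed level of 8 myeloid markers was 985 and 2200 CPM in wild type, 299 and 323 in premalignant and 73.6 and 141 in malignant libraries. The 6 erythroid markers summed to 294 and 1084 CPM in wild type and 52.5 to 138 in the other libraries. The 5 plasma-cell markers summed to 859 and 755 CPM in wild type and 330 to 386 in the others. Most of the plasma-cell sum was 1 gene, Irf4, with 685 and 602 CPM in wild type, 306 and 310 in premalignant and 281 and 244 in malignant libraries. Of 8 pre-B markers, 8 were detected in every library. In the malignant stage 8 were called lower than wild type, beside 24.3% of all genes tested. The pre-B sums were 4647 and 5716 CPM in wild type, 2969 and 2970 in premalignant and 2661 and 2608 in malignant libraries. In these bulk samples fewer cells of a type and less RNA per cell cannot be told apart.

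Among the members Lmna and Satb1 moved furthest, and the others changed less. Malignant cells differed from wild type in 4 of the 10 members, with Lmnb2 and Lmna higher and Nipbl and Satb1 lower. Over all genes tested, 49.2% were called in this comparison, 24.9% higher and 24.3% lower, so the members' share was near the background. Premalignant cells differed from wild type in 5 members, with Smc3 and Lmnb2 higher and Nipbl, Lmna and Satb1 lower, against 39.3% of all genes (19% higher and 20.3% lower). Between malignant and premalignant cells 1 member was called, Lmna, which was higher, against 6.18% of all genes (3.73% higher and 2.45% lower). The comparisons share libraries, and their values are therefore set side by side. The median log2 fold change of the 10 members was -0.09 for malignant against wild type, 0.08 for premalignant against wild type and -0.23 for malignant against premalignant, beside -0.02, -0.08 and 0.04 over all genes tested. In each of the 3 comparisons 6 of the 10 members had no overlap between the libraries of the stages, where 71.7%, 77.4% and 51.1% of all genes tested had none. The fits that leave out 1 library called 4 or 5 members in malignant against wild type. They called 1 to 6 in premalignant against wild type, where 3 members were called without wild-type replicate 1 and 1 member, Lmnb2, without wild-type replicate 2 or either premalignant library.

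**Figure D1:**
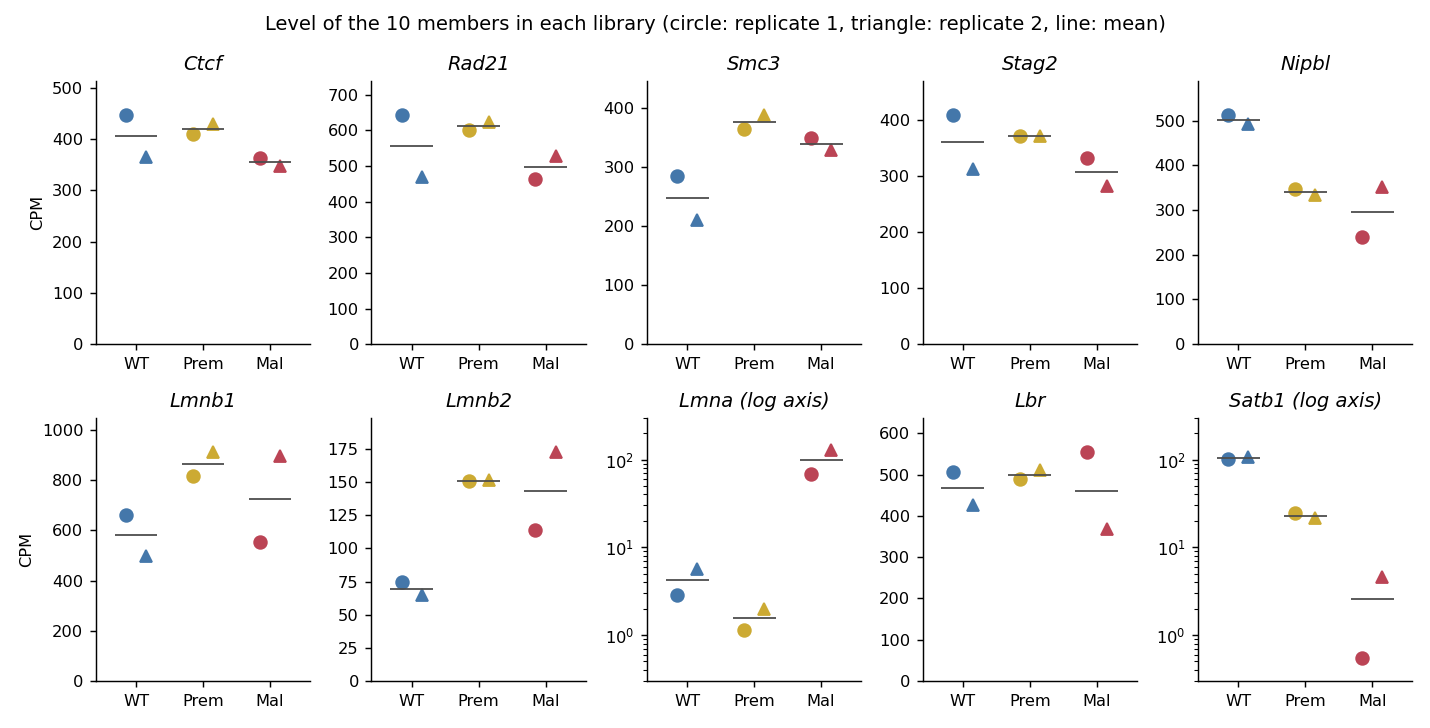
Level of each member in TMM-scaled CPM in the 6 libraries, with the stages on the x axis (WT for wild type, Prem and Mal for the transgenic stages), circles for replicate 1, triangles for replicate 2 and a line at the mean of the 2. Axes start at 0 except for Lmna and Satb1, which are on log axes, where Lmna rises to 67.8 and 129 CPM in malignant libraries and Satb1 falls from 102 and 108 CPM in wild type to 0.544 and 4.62.

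Promoter sequences are shown for a pair of members whose level moved little, Ctcf and Lbr, and for the pair that moved most, Lmna and Satb1. They are the 250 bases before the start site in RefSeq on GRCm38.p6, a later build than the mm9 used for the counts, written 5′ to 3′ on the gene's strand with each CG dinucleotide in capitals. The RefSeq table held 12 promoters of 6 members (Ctcf, Smc3, Lmnb2, Lmna, Lbr and Satb1), and Rad21, Stag2, Nipbl and Lmnb1 had no entry in it. The Ctcf stretch is chr8:105636288-105636537 (plus strand), that of Lbr chr1:181842402-181842651 (minus strand), that of the first of 2 Lmna start sites chr3:88503353-88503602 (minus strand) and that of the second of 5 Satb1 start sites chr17:51832648-51832897 (minus strand).
Ctcf: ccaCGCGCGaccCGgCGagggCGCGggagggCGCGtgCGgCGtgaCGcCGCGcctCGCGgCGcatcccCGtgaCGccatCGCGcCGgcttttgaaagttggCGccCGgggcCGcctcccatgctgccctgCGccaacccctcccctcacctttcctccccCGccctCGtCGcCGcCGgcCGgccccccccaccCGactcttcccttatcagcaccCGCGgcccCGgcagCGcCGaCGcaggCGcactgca
Lbr: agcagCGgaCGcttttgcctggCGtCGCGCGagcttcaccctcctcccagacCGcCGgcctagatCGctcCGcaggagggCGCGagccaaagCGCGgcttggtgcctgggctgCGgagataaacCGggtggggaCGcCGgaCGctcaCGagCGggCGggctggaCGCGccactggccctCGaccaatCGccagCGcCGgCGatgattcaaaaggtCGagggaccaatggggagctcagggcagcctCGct
Lmna, start site 1: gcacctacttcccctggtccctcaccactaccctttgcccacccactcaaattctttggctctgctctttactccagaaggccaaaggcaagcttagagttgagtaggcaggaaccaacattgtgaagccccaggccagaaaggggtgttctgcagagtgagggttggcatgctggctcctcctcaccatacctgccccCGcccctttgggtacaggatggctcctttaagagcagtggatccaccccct
Satb1, start site 2: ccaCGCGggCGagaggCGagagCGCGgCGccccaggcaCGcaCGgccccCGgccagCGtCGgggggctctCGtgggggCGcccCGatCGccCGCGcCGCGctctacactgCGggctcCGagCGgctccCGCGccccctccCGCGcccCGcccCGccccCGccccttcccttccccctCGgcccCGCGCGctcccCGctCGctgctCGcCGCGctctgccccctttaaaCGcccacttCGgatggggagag
The Ctcf stretch holds 40 CG dinucleotides and the Lbr stretch 31, against a median of 6 over 32851 promoters, of which 17.9% held 20 or more. Smc3 had 26. The Lmna stretch holds 1, and the promoter at its other start site 4. Whether either of these start sites lies at the upstream end of the Lmna gene as counted in mm9 was not tested. Another Lmna promoter may therefore be missing here. Of all promoters 29.0% held 2 or fewer. Satb1 had both kinds, with 41 in the stretch shown and 3 to 12 at its other 4 start sites, and the counts per gene do not tell which start site was used. The letters CACGTG, which read the same on both strands and are the core that Myc with Max is known to bind, were searched in the 300-base windows (250 bases before to 50 after the start). They were in 0 of the 12 member promoters and in 7.15% of all promoters, which says only that these letters are not in these windows.

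Ctcf, the zinc-finger protein that marks loop anchors (chromosome 8, 108160468 to 108206822 in mm9, plus strand), was not called in any of the 3 comparisons. It had 446 and 365 CPM in wild type, 410 and 430 in premalignant and 362 and 347 in malignant libraries. The premalignant values lay between the wild-type values, and both malignant values lay just below the lower wild-type one. The log2 fold change was -0.19 for malignant against wild type (95% interval -0.55 to 0.17, adjusted p = 0.342) and 0.05 for premalignant against wild type (-0.31 to 0.41, adjusted p = 0.821). Any change beyond 1 on the log2 scale therefore lies outside both intervals. The malignant value against wild type depended on the scaling. It was -0.49 (edgeR, adjusted p = 0.0346) with total counts alone and -0.36 (adjusted p = 0.0867) with the upper quartile. Both were under the minimum fold change and so were not called.

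Rad21, the kleisin that closes the cohesin ring (chromosome 15, 51794151 to 51823306, minus strand), had 642 and 469 CPM in wild type, 602 and 624 in premalignant and 463 and 529 in malignant libraries. The wild-type libraries spanned nearly the whole range, and no comparison passed the threshold. Its log2 fold change was -0.16 for malignant against wild type (-0.62 to 0.29) and -0.31 for malignant against premalignant (-0.76 to 0.15, adjusted p = 0.436). Stag2, the more abundant of the Stag subunits in these cells (chromosome X, 39502494 to 39630362, plus strand), had 408 and 313 CPM in wild type, 370 and 372 in premalignant and 331 and 282 in malignant libraries. Its stages overlapped between malignant and wild type, and its log2 fold change there was -0.23 (-0.66 to 0.19, adjusted p = 0.325). With scaling by total counts alone, which moved the median of all genes by -0.30, Stag2 was called lower there (-0.53, adjusted p = 0.0438). The 282 CPM came from malignant replicate 2, the library with Xist RNA, and the 331 CPM from replicate 1, the library with Y-linked RNA. Per exon length, as RPKM (TMM-scaled CPM per kilobase of exon), Stag2 made up 73.4% to 77.7% of Stag1 and Stag2 together in the 6 libraries. That share moved little between stages, with 76.3% and 77.7% in wild type and 75.6% and 73.4% in malignant libraries.

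Smc3, an ATPase arm of the ring (chromosome 19, 53674886 to 53720323, plus strand), was the cohesin member that rose. It had 284 and 210.02 CPM in wild type, 365 and 387 in premalignant and 348 and 329 in malignant libraries. All 4 transgenic libraries lay above both wild-type libraries. Against wild type the premalignant log2 fold change was 0.60 (SE 0.18, adjusted p = 0.0445), a 1.52-fold rise. In malignant cells it was 0.45 (SE 0.18, adjusted p = 0.0808), under the minimum fold change, so it was not called. The premalignant call was lost in 3 of the 6 fits that leave out a library. Those were the fits without wild-type replicate 2 (log2 fold change 0.41, adjusted p = 0.173) and without premalignant replicate 1 (0.65, 0.181) or replicate 2 (0.57, 0.246). It was also lost when libraries were scaled by total counts alone (0.40, adjusted p = 0.121). Smc1a, the other ATPase arm, had 348 and 306 CPM in wild type, 488 and 565 in premalignant and 399 and 398 in malignant libraries. It rose in premalignant cells with a log2 fold change of 0.69 (SE 0.15, adjusted p = 0.0177), and was 0.29 in malignant against wild-type cells (adjusted p = 0.163). The ratio of Rad21 to Smc3 RPKM was 3.47 and 3.43 in wild type, 2.54 and 2.48 in premalignant and 2.05 and 2.47 in malignant libraries.

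Nipbl, the loader (chromosome 15, 8241225 to 8394463, minus strand), fell. It had 512 and 492 CPM in wild type, 347 and 333 in premalignant and 239 and 351 in malignant libraries. All 4 transgenic libraries lay below both wild-type libraries, and the malignant values lay on either side of the premalignant ones. Malignant against wild type gave a log2 fold change of -0.77 (SE 0.20, adjusted p = 0.0234), a 1.70-fold fall, and stayed called in each fit without 1 library (-1.05 to -0.51). For premalignant against wild type it was -0.56 (SE 0.20, adjusted p = 0.0767), and this call was lost in the 4 fits without 1 of the wild-type or premalignant libraries (adjusted p = 0.216 to 0.335). Mau2, the loader's partner subunit, had 144 and 176 CPM in wild type, 125 and 113 in premalignant and 111 and 93.9 in malignant libraries. It fell as well, with a log2 fold change of -0.64 (SE 0.16, adjusted p = 0.0216) in malignant against wild-type cells.

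The releasing factor Wapal, the older symbol of Wapl, went down and then up. It had 63.5 and 49.6 CPM in wild type, 26.4 and 22.3 in premalignant and 181 and 151 in malignant libraries. No stage overlapped another. Its log2 fold change was -1.21 (SE 0.19, adjusted p = 0.00702) for premalignant against wild type. It was 2.77 (SE 0.20, adjusted p = 0.00985) for malignant against premalignant and 1.55 (SE 0.19, adjusted p = 0.00198) for malignant against wild type. The call of Wapal against premalignant cells was lost in the fits that leave out either premalignant library. The ratio of Nipbl to Wapal RPKM was 6.05 and 7.47 in wild type, 9.87 and 11.2 in premalignant and 0.991 and 1.75 in malignant libraries. In malignant libraries loader and releaser RNA per length were thus nearer to each other than at the earlier stages.

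The list for cohesin loading, release and acetylation held 12 genes, Nipbl included. In malignant cells against wild type 2 of them were higher and 5 lower, beside 24.9% and 24.3% of all genes tested. Espl1, the separase that cleaves Rad21, was the other one higher (log2 fold change 0.85, adjusted p = 0.0409). Esco1, an Smc3 acetyltransferase, was lower (-1.0, adjusted p = 0.0053), as were Hdac8, the Smc3 deacetylase (-0.99, adjusted p = 0.0056), and Pttg1, the securin that restrains separase (-0.98, adjusted p = 0.0147). In premalignant against wild-type cells 4 were higher and 4 lower. Of the 5 cohesin core genes, with Smc3, Rad21 and Stag2 among them, 2 were higher in premalignant and 0 in malignant cells against wild type by edgeR or DESeq2, with 1 at an unadjusted p under 0.05. Of the 4 meiotic cohesin genes, Rad21l was at 0 in all 6 libraries and 3 were tested. Stag3 had 13.8 and 18.4 CPM in wild type, 14.6 and 13.8 in premalignant and 1.38 and 2.01 in malignant libraries. This was a fall against wild type (-3.26, SE 0.31, adjusted p = 0.00106) and against premalignant cells (-3.08, SE 0.31, adjusted p = 0.0156). The call of Stag3 against premalignant cells was lost in the fits that leave out either premalignant library.

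Lmnb1, the main B-type lamin (chromosome 18), had the highest mean RPKM of the 10 members. Its level was 662 and 500 CPM in wild type, 817 and 912 in premalignant and 553 and 898 in malignant libraries. Both premalignant libraries lay above both wild-type ones, and the malignant libraries spread across them. Its log2 fold change was 0.57 (95% interval -0.07 to 1.22, adjusted p = 0.150) for premalignant against wild type and 0.32 (-0.32 to 0.97, adjusted p = 0.375) for malignant against wild type, and neither was called. The premalignant rise was called when genes of low count were kept (adjusted p = 0.0214), with only the stages compared (0.63, adjusted p = 0.0170) and without malignant replicate 1 or replicate 2 (adjusted p = 0.0223 and 0.018), and without malignant replicate 1 the malignant rise was called too (0.64, adjusted p = 0.0302). The 10 cell-cycle genes of a fixed list summed to 5220 and 3440 CPM in wild type, 6979 and 7453 in premalignant and 4553 and 5790 in malignant libraries. As with Lmnb1, the lowest sum was in wild-type replicate 2 and the highest in premalignant replicate 2. Of these genes 7 were higher in premalignant and 3 in malignant cells against wild type, and their part in the lamin values was not tested.

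Lmnb2, the second B-type lamin (chromosome 10, 80363948 to 80380990, minus strand), was higher than wild type in both transgenic stages. It had 74.6 and 64.9 CPM in wild type, 151 and 152 in premalignant and 114 and 173 in malignant libraries. All 4 transgenic libraries lay above both wild-type libraries, while malignant and premalignant libraries overlapped. Against wild type it rose by 1.12 on the log2 scale (SE 0.21, adjusted p = 0.0129) in premalignant and by 1.04 (SE 0.21, adjusted p = 0.0107) in malignant cells, and the log2 fold change between the transgenic stages was -0.08 (95% interval -0.59 to 0.44). Both calls held in each of the 6 fits without 1 library. The rise corresponded to 2.17-fold and 2.06-fold. The change from premalignant to malignant less that from wild type to premalignant was -1.19 (SE 0.36, adjusted p = 0.121), which was not called.

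Lmna, the gene for A-type lamins (chromosome 3, 88285070 to 88313878, minus strand), was nearly silent before malignancy and was high in both malignant libraries. It had 2.89 and 5.69 CPM in wild type (165 and 201 counts), 1.14 and 1.96 in premalignant (60 and 65 counts) and 67.8 and 129 in malignant libraries (3245 and 3614 counts). No stage overlapped another, and the premalignant libraries were the lowest. The log2 fold change was 6.01 (SE 0.55, adjusted p = 0.0126) for malignant against premalignant, a 64.5-fold rise, and 4.53 (SE 0.51, adjusted p = 0.00154) for malignant against wild type, a 23.2-fold rise. In premalignant against wild-type cells it was -1.48 (SE 0.49, adjusted p = 0.0641), and this fall was lost without wild-type replicate 2 (-0.92, adjusted p = 0.308), premalignant replicate 1 (-1.11, 0.285) or premalignant replicate 2 (-1.89, 0.135). The rise against wild type held in all 6 fits without 1 library (4.03 to 5.09). The rise against premalignant was not called without premalignant replicate 1 (5.65, adjusted p = 0.203) or replicate 2 (6.43, adjusted p = 0.116). In those edgeR fits 0 of all genes tested were called, with 1472 and 1777 at an unadjusted p under 0.05.

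The change of Lmna from premalignant to malignant also differed from its change from wild type to premalignant. The difference of the 2 steps was 7.49 on the log2 scale (SE 0.97, adjusted p = 0.0264), and Lmna was the 1 member called in this test, against 9.63% of all genes. Without wild-type replicate 2 the adjusted p was 0.124, and without premalignant replicate 1 or 2 it was 0.410 or 0.367. Lmna made up 0.281% and 0.722% of the summed RPKM of the 3 lamin genes in wild type, 0.0863% and 0.134% in premalignant and 6.96% and 8.14% in malignant libraries. Lmnb1 remained the main lamin transcript, with 92.5% and 91.1% in wild type and 81.4% and 81.1% in malignant libraries. The 8 myeloid markers had sums of 985 and 2200 CPM in wild type, 299 and 323 in premalignant and 73.6 and 141 in malignant libraries. The 6 stromal and endothelial markers summed to 208 and 258 CPM in wild type, 88.8 and 107 in premalignant and 138 and 68.0 in malignant libraries. In malignant replicate 1, 2 of the 6 were at 0. Most of each sum was Pecam1, with 192 and 240 CPM in wild type, 79.2 and 99.3 in premalignant and 136 and 62.1 in malignant libraries. Col1a1, Col3a1, Cxcl12 and Vcam1 had at most 3.45 CPM in any library. Cdh5 had 14.7 and 12.4 CPM in wild type, 9.05 and 6.38 in premalignant and 2.20 and 3.62 in malignant libraries. The myeloid sums were lowest in the malignant libraries. The stromal and endothelial sum, mostly Pecam1, lay above both premalignant ones in malignant replicate 1 and below both in replicate 2. The part of these cells in the Lmna values was not tested.

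**Figure D2:**
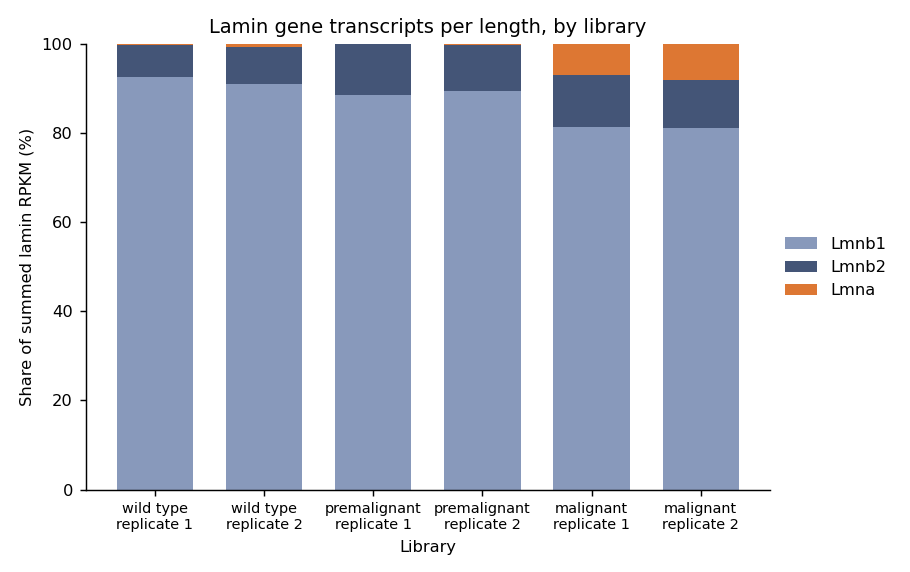
Share of the summed RPKM of the 3 lamin genes taken by Lmnb1, Lmnb2 and Lmna (y axis, percent) in each of the 6 libraries (x axis). Lmna takes 6.96% and 8.14% in the malignant libraries and at most 0.722% in the others.

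Lbr, an inner nuclear membrane protein that binds B-type lamins and heterochromatin (chromosome 1, 183745447 to 183772532, minus strand), had the smallest range of stage means among the members. Its level was 506 and 427 CPM in wild type, 488 and 511 in premalignant and 555 and 368 in malignant libraries. The malignant libraries held both the highest and the lowest value. Its log2 fold change was -0.02 for malignant against wild type (95% interval -0.55 to 0.52, adjusted p = 0.963) and 0.10 for premalignant against wild type (-0.43 to 0.63, adjusted p = 0.762).

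Of 17 lamina and inner nuclear membrane genes found, the lamins and Lbr included, 4 were higher and 2 lower in malignant cells against wild type. The shares of all genes tested were 24.9% higher and 24.3% lower. Banf1, which bridges DNA and the LEM-domain proteins and has the highest mean RPKM of the list, had 127 and 102 CPM in wild type, 259.9 and 263 in premalignant and 263 and 281 in malignant libraries. It rose by 1.24 on the log2 scale (SE 0.15, adjusted p = 0.00194). Syne2, the nesprin that joins the envelope to the cytoskeleton, had 97.0 and 133 CPM in wild type, 74.4 and 74.9 in premalignant and 19.4 and 27.9 in malignant libraries. It fell against wild type (-2.28, SE 0.24, adjusted p = 0.00132) and against premalignant cells (-1.66, SE 0.24, adjusted p = 0.0291). Emd, the gene for the LEM-domain protein emerin, was the other one lower against premalignant cells (-0.55, adjusted p = 0.0969). For Syne2 and Emd the call against premalignant cells was lost in the fits that leave out either premalignant library. Of 5 lamin processing enzymes, 2 were higher in both transgenic stages than in wild type. They were Fntb, the farnesyltransferase beta subunit (1.18, adjusted p = 0.0124 in malignant cells), and Rce1, the protease that trims farnesylated proteins (0.59, adjusted p = 0.0215). Zmpste24, the protease that matures prelamin A, had 99.2 and 84.6 CPM in wild type and 104 and 77.0 in malignant libraries, with a log2 fold change of -0.02 (adjusted p = 0.941).

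**Figure D3:**
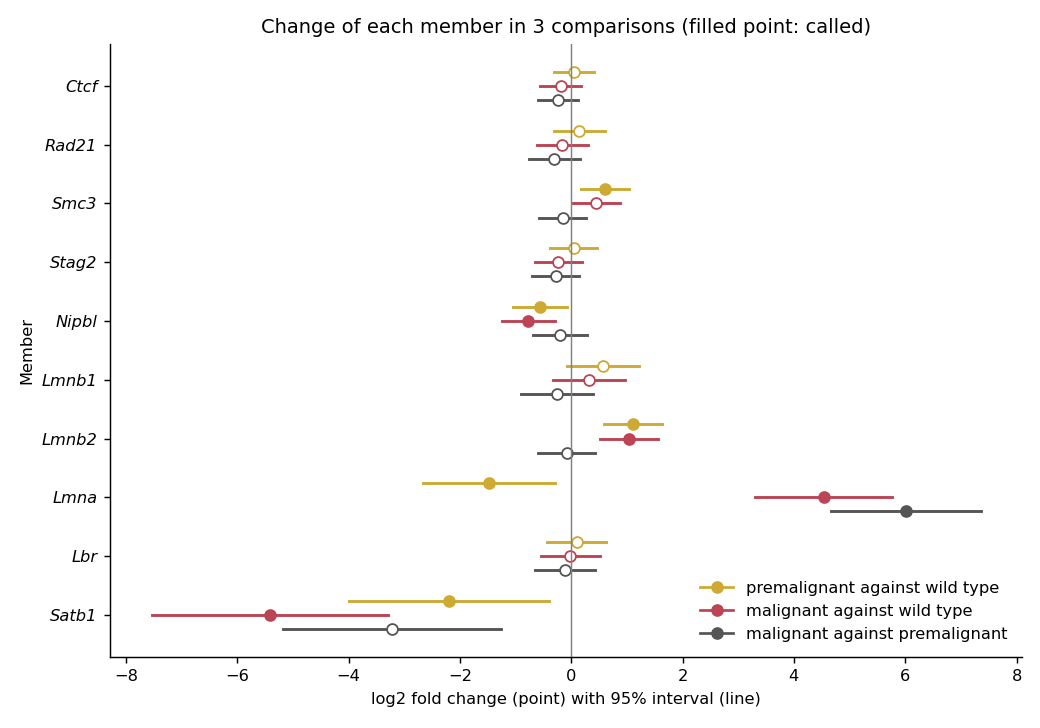
Log2 fold change of each member (y axis) in the 3 comparisons (colours), with points for the estimate, lines for the 95% interval and filled points where the gene was called. Lmna reaches 6.01 for malignant against premalignant and Satb1 -5.42 for malignant against wild type, while the intervals of Ctcf, Rad21, Stag2, Lmnb1 and Lbr include 0 in all 3.

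Satb1 (chromosome 17, 51875512 to 51972615, minus strand) was lower than wild type in both transgenic stages. It had 102 and 108 CPM in wild type (5831 and 3824 counts), 24.6 and 21.3 in premalignant (1289 and 708 counts) and 0.544 and 4.62 in malignant libraries (26 and 129 counts). No stage overlapped another, and the replicates were close in wild type and premalignant but far apart in malignant cells. The log2 fold change was -5.42 (SE 0.88, adjusted p = 0.00482) for malignant against wild type, a 42.7-fold fall that held in all 6 fits without 1 library (-7.56 to -4.50). For premalignant against wild type it was -2.20 (SE 0.74, adjusted p = 0.0672), and this call was lost in the 4 fits without 1 of the wild-type or premalignant libraries (adjusted p = 0.191 to 0.278). For malignant against premalignant it was -3.22 (SE 0.81, adjusted p = 0.104), just outside the threshold, and 0.232 with only the stages compared. It was called there by DESeq2 (adjusted p = 0.0303) and without malignant replicate 1 (-2.31, adjusted p = 0.00211) or replicate 2 (-5.43, adjusted p = 0.000155).

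Several markers moved with Satb1. Vpreb1 and Igll1, the surrogate light-chain genes of the pre-B list, were lower than wild type in both transgenic stages. Vpreb1 had 114 and 131 CPM in wild type, 9.73 and 4.88 in premalignant and 0.146 and 4.05 in malignant libraries. Igll1 had 197 and 195 CPM, then 18.8 and 9.58, then 0.167 and 7.56. Neither was called in malignant against premalignant cells (adjusted p = 0.389 and 0.424). For both, malignant replicate 1 was the lower malignant library, as for Satb1. The 8 T-cell markers summed to 117 and 60.3 CPM in wild type, 36.1 and 17.9 in premalignant and 6.25 and 19.5 in malignant libraries. In the malignant stage 6 of the 8 were called lower against wild type, beside 24.3% of all genes tested. Natural killer cell markers fell further, with sums of 209 and 63.0, then 10.9 and 2.68, then 1.07 and 2.94 CPM. Between the wild-type libraries Satb1 differed little (102 and 108 CPM) where these sums differed by more. Their part in the fall of Satb1 was not tested.

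Of the 7 matrix-attachment factors, Satb1 included, 2 were higher and 2 lower in malignant cells against wild type. The shares of all genes tested were 24.9% higher and 24.3% lower. Hnrnpu, also known as scaffold attachment factor A and the most abundant gene of this list per length, rose by 0.76 on the log2 scale (SE 0.17, adjusted p = 0.0140). Cux1, a homeodomain repressor that binds matrix-attachment regions, fell by 0.66 on the log2 scale (adjusted p = 0.0140).

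The remaining lists of architecture genes were loop, condensin, Smc5/6 and heterochromatin factors. Of 10 looping and insulator factors, Ctcf included, 1 was lower in malignant cells (Vezf1, a zinc-finger factor, -0.91, adjusted p = 0.00433) and 0 were called in premalignant against wild-type cells by edgeR or DESeq2, with 4 at an unadjusted p under 0.05. Of 8 condensin genes, 3 were higher in premalignant cells, among them Ncapd2 (0.73, adjusted p = 0.0496). In malignant cells 0 of the 8 were called by edgeR or DESeq2, with 0 at an unadjusted p under 0.05. Of 6 genes of the Smc5/6 complex, a DNA-repair relative of cohesin, 4 were higher in malignant cells, with Smc6 the furthest (0.81, adjusted p = 0.0308). Of 10 heterochromatin factors, 8 were higher in premalignant and 5 in malignant cells against wild type. Cbx5, the gene for HP1 alpha, had 340.2 and 235 CPM in wild type, 675 and 752 in premalignant and 578 and 915 in malignant libraries (1.38, SE 0.28, adjusted p = 0.0102 for malignant against wild type). Trim28, a corepressor that recruits HP1, rose by 0.89 (adjusted p = 0.0052), and Hp1bp3 was the 1 gene of the list that fell (-0.56, adjusted p = 0.0171). Over the 73 architecture genes tested that are not members, 17 were higher and 10 lower in malignant against wild-type cells, 25 higher and 7 lower in premalignant against wild-type cells, and 1 higher and 3 lower in malignant against premalignant cells. These were 37.0%, 43.8% and 5.48% of the 73, beside 49.2%, 39.3% and 6.18% of all genes tested. Their median log2 fold change was 0.18, 0.36 and -0.13 in these comparisons.

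**Figure D4:**
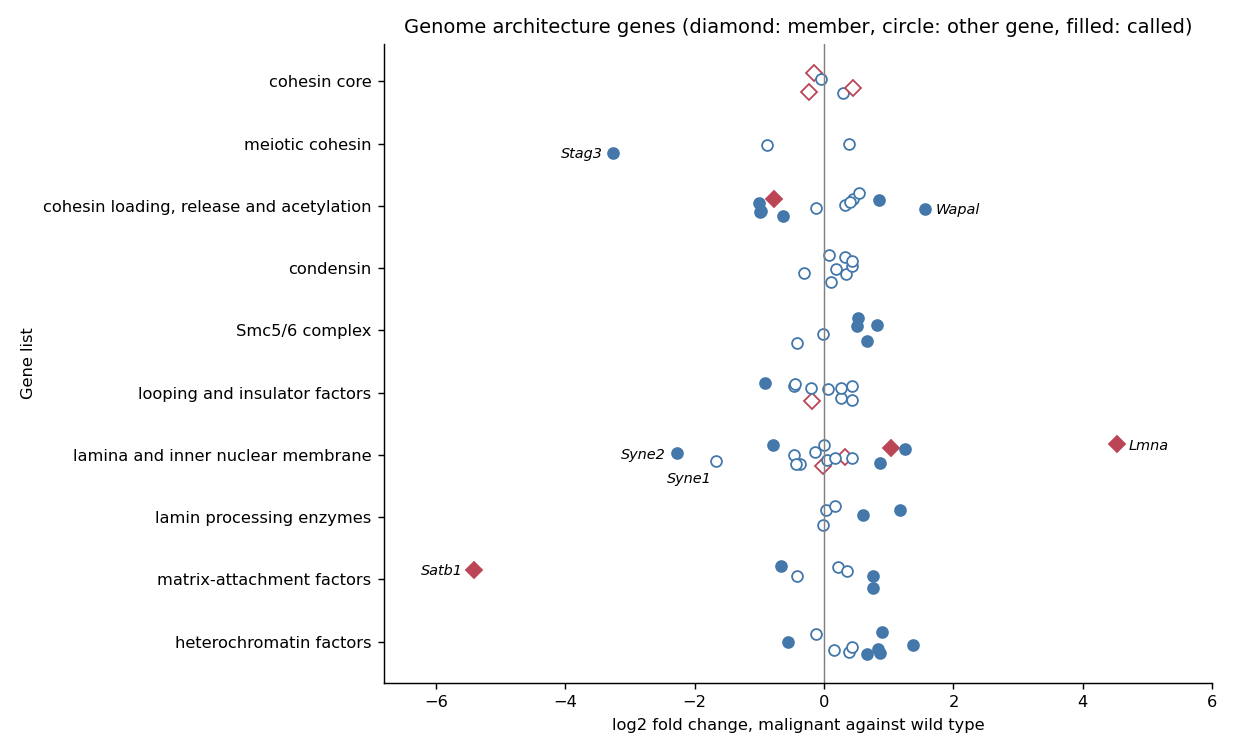
Log2 fold change of malignant against wild-type cells (x axis) for the tested genes of the 10 architecture lists (y axis), with diamonds for members, circles for other genes and filled symbols for called genes. Genes with a change beyond 1.5 in size are named, and Lmna (4.53) and Satb1 (-5.42) lie at the ends.

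By RPKM, which compares genes per exon length, the members kept much of their order. In wild-type cells the mean RPKM was 196 for Lmnb1, 154 for Rad21, 131 for Lbr, 83.4 for Ctcf, 57.0 for Nipbl, 44.6 for Smc3, 43.5 for Stag2, 16.3 for Lmnb2, 11.2 for Satb1 and 1.01 for Lmna. The libraries of Rad21 overlapped those of Lmnb1 and those of Lbr there, and Smc3 overlapped Stag2. In malignant cells it was 245 for Lmnb1, 138 for Rad21, 130 for Lbr, 73.0 for Ctcf, 61.1 for Smc3, 37.0 for Stag2, 33.5 for both Nipbl and Lmnb2, 23.2 for Lmna and 0.276 for Satb1. Neighbours whose libraries overlapped there were Rad21 and Lbr, Stag2 and Nipbl, Nipbl and Lmnb2, and Lmnb2 and Lmna. Lmna and Satb1 had changed places at the foot of the order, from the 28.6th to the 81.2nd percentile of all tested genes for Lmna and from the 68.7th to the 18.6th for Satb1.

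Among 8882 genes with a mean of at least 10 CPM, the 3 with the pattern most like that of Lmna over the 6 libraries were S100a6, Zbtb32 and Tlr1. Their root-mean-square differences from Lmna in centred log2 CPM were 0.297, 0.557 and 0.728. S100a6, a calcium-binding protein gene that like Lmna is on chromosome 3, had 17.4 and 19.8 CPM in wild type, 6.19 and 9.55 in premalignant and 209 and 376 in malignant libraries. It shared with Lmna the dip in premalignant cells and the higher value in malignant replicate 2. For Lbr the closest genes were Uhmk1, Lnp and Zfp788, with differences of 0.0253, 0.0585 and 0.0642. Uhmk1, a kinase gene also on chromosome 1, had 259 and 169 CPM in the malignant libraries, apart in the same direction as Lbr. For Satb1, added after its values were seen, they were Epha2, Zbtb10 and the heavy-chain variable gene Ighv9-3, whose reads may be shared with near-identical copies (0.218, 0.311 and 0.339). Within 500 kb of Lmna 32 other genes were tested. Of these, 14 were higher and 4 lower in malignant cells against wild type. Against premalignant cells 1 was higher and 1 lower. Over all genes tested, 24.9% were higher and 24.3% lower in the first comparison, and 3.73% and 2.45% in the second. A part of the region in the Lmna values was not tested. No tested gene lay within 500 kb of Satb1.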

How the data were processed

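RNA-seq of wild-type, premalignant and malignant cells gave 2 libraries per stage. Per the labels and the study's methods, the authors sequenced poly(A) RNA as 50-bp single-end reads, aligned them to mm9 with TopHat and deposited HTSeq counts per Ensembl gene. Their processing notes name CASAVA 1.8.2, Bowtie, HTSeq and DESeq. The strand setting, annotation and treatment of multi-mapped reads are not given in the sources used here. The deposited counts are raw whole numbers, 1 file per library. The authors' tables of base means, fold changes and p-values were not used.

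Ensembl identifiers were given symbols with GENCODE vM1 (37205 of 37991 matched). No exon of a member shared bases with an annotated exon of another gene. Counts of all 6 libraries were fitted with edgeR 4.0.16 in R 4.3.3 (TMM, filterByExpr, quasi-likelihood F-test, 1 coefficient per stage), with DESeq2 1.42.0 as an alternative, after tests on simulated data. The SE was the size of the log2 fold change over the root of F. RPKM used the union of annotated exons. With 2 libraries against 2, an exact permutation test of a single gene cannot give a two-sided p below 0.333, so only the fit across genes was tested. The depth covers counting error only.

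Members and lists were chosen with earlier results of these data known. Named genes were the 10 members, and from each list up to 4 genes: the called genes with the largest rise and fall in malignant against wild type, the gene with the highest mean RPKM, and Smc1a, Stag1 and Mau2. For the members with the largest and smallest range of stage means (Lmna, Lbr) the 3 most alike genes were named, by root-mean-square difference of centred log2(CPM + 0.5). The lists leave out 1 gene that is not reported here. Other genes named were chosen after their values were seen. Alternatives were another test, 3 scalings, 2 filters, a replicate block, fits of the compared stages alone, other thresholds and leaving out each library. A fit with 1 library in a stage assumes that it varies like the others.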

Additional observations from a re-analysis of the deposited data

How the results depend on the processing

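Of the members' calls, Lmnb2 against wild type at both stages, and Lmna and Satb1 in malignant against wild type, held their direction and side of the threshold under all 17 alternatives, and Nipbl in malignant against wild type under all but the larger fold change threshold of 1. In malignant against premalignant cells the 1031 genes called became 2113 with DESeq2, 2810 with no filter on low counts, 258 with only the stages compared and 407 at an FDR of 0.05, and 0 to 3805 without 1 library (0 without either premalignant library, 3805 without malignant replicate 2). In premalignant against wild type the 6563 became 4282 at a log2 fold change of 1, and 2094 to 8455 without 1 library. Members called in malignant against premalignant went from 1 to 2 with DESeq2, no filter, at least 10 counts in every library, and the replicate block (0 to 4 without 1 library). Members called in the test of the 2 steps went from 1 to 3 with DESeq2 and no filter (0 to 4), and those in premalignant against wild type from 5 to 2 at an FDR of 0.05 and 3 at a log2 fold change of 1 (1 to 6). The cause was not tested.

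With the replicate block, 8224 genes were called in malignant against wild type, 6575 in premalignant against wild type and 940 in malignant against premalignant, and Satb1 was called in the last (adjusted p = 0.0887). Deviations of libraries with the same number correlated at 0.411 (wild type and premalignant), 0.0569 (wild type and malignant) and 0.128 (premalignant and malignant). The replicate 1 libraries held 51065861 to 53453055 counts and the replicate 2 libraries 30031100 to 34543633. What the same-numbered libraries share was not tested. The main fit had no replicate block because the study's methods name none.

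Upper-quartile scaling moved the median of all genes by -0.17 in malignant against wild type, and total counts alone by -0.30 there and by -0.21 in premalignant against wild type. The share of calls that were higher went from 50.6% to 35.5% (malignant against wild type) and 48.3% to 33.7% (premalignant against wild type) with total counts alone, and in malignant against premalignant from 60.4% to 50.7% with total counts and 49.7% with the upper quartile. With total counts alone Stag2 was called lower in malignant against wild type (-0.53) and Smc3 lost its premalignant call (0.40). Directions that turned, not called there, were in premalignant against wild type those of Ctcf and Stag2 with the upper quartile (-0.032, -0.040), total counts (-0.16, -0.17) and at least 10 counts (-0.012, -0.020), and of Rad21 (-0.066) and Lbr (-0.11) with total counts. Without 1 library the log2 fold change crossed 0 in premalignant against wild type for Ctcf (-0.083 to 0.21), Rad21 (-0.063 to 0.39), Stag2 (-0.13 to 0.25) and Lbr (-0.016 to 0.23), in malignant against wild type for Rad21 (-0.37 to 0.085), Lmnb1 (-0.048 to 0.64) and Lbr (-0.33 to 0.27), in malignant against premalignant for Nipbl (-0.54 to 0.043), Lmnb1 (-0.68 to 0.054), Lmnb2 (-0.44 to 0.19) and Lbr (-0.44 to 0.12), and in the difference of the 2 steps for Nipbl (-0.041 to 0.59). At these ends Nipbl and Lmnb1 were called lower against premalignant cells without malignant replicate 2 (adjusted p = 0.0405 and 0.0677), Lmnb1 higher against wild type without malignant replicate 1 (0.0302), and Nipbl in the difference of the steps without malignant replicate 1 (0.0906).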
